A study of Mus musculus with 6 samples.

Results

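Clade B serpins are protease inhibitors that mostly stay inside the cell, and the 10 genes described here are Serpinb6e and 9 relatives measured in mouse skin: Serpinb6a, Serpinb6b, Serpinb6c, Serpinb1a, Serpinb2, Serpinb5, Serpinb8, Serpinb9 and Serpinb12. They were taken by name, through each probe set whose single gene symbol in the platform annotation was one of these 10, which gave 17 of 45101 probe sets and 10 of 18193 genes with such a probe set. The family was chosen around Serpinb6e because of its difference between the groups compared here. The differences of the members between those groups are therefore a description, without a test. The skin came from 6 mice of the inbred strain C3H/HeJ, 3 of them with alopecia areata, whose alopecic skin was sampled, and 3 unaffected, with 1 array per mouse. Alopecia areata is an autoimmune loss of hair in which lymphocytes gather around growing follicles. The sources used here do not give age, sex, body site, hair cycle stage or treatment, and name no genotype other than the strain for either group.

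A serpin offers its exposed reactive centre loop to a protease as bait. When the protease cuts the loop, the serpin changes its own fold and both are locked together, so that each inhibitor molecule is used up. Members of clade B lack a classical signal peptide and guard the cytoplasm against proteases that leak from granules or lysosomes, and in skin several of them are made by keratinocytes and immune cells. In mouse the family has expanded, and its genes lie in clusters on chromosomes 1 and 13.

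The values are log2 RMA values of a 3' expression array, in which a step of 1 is a 2-fold difference, and the array medians lay between 6.11 and 6.17. A level below these medians is called dim here, and RMA compresses differences of dim signals. Levels of different probe sets are on different scales, so that levels are compared between arrays, not between genes. Marker genes of skin were at high values on every array: the mean of 7 genes of basal keratinocytes, Krt5 and Krt14 among them, ran from 12.302 to 12.888. Unaffected replicate 3 stood apart, with correlations across genes of 0.9056 to 0.9333 to the other arrays, where the other pairs had 0.96 to 0.9876. Its mean over 12 hair shaft keratins was 5.941, against 10.057 to 12.756 on the other 5 arrays, so each main result is also given without it.

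Of the 10 genes 2 passed the threshold of the fit over all genes (limma, Benjamini-Hochberg adjusted p under 0.05): Serpinb9 rose and Serpinb6e fell. Over all genes 50 of 18193 passed, or 0.275%. They were 48 that rose, or 0.264%, and 2 that fell, or 0.011%. The groups did not overlap for 5 of the 10 genes, 3 with the alopecic arrays higher and 2 with them lower, against 13.1% of all genes, of which 6.93% higher and 6.12% lower. Since the family was chosen with this comparison known, nothing is read from these counts. The median log2 difference of the 10 genes was -0.28, beside -0.01 over all genes. When unaffected replicate 3 was dropped these medians were -0.55 and 0.0024, and 0 of the 10 genes and 39 of all genes passed (by limma, 4 of the 10 had an unadjusted p under 0.05, as did 10.1% of all genes).

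**Figure D1:**
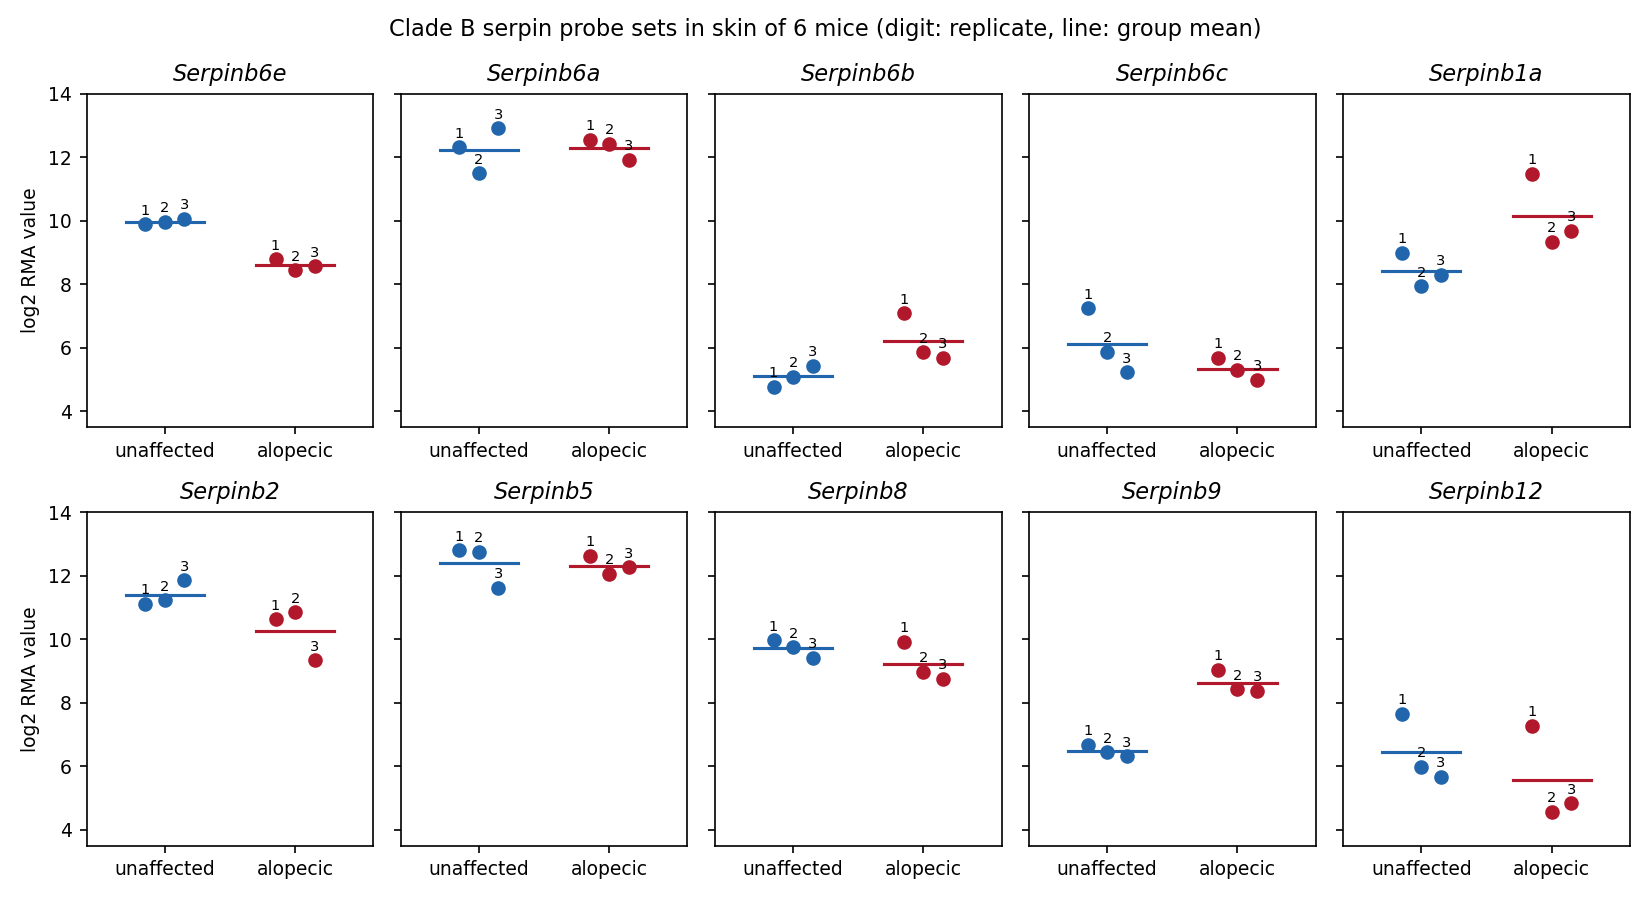
Log2 RMA value (y axis) of the probe set taken for each of the 10 genes, by group (x axis); each point is 1 mouse with its replicate number, and lines are group means. The alopecic points lie below the unaffected ones for Serpinb6e (8.44 to 8.78 against 9.88 to 10.05) and above them for Serpinb9 (8.38 to 9.04 against 6.32 to 6.67); heights are not comparable between panels.

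Serpinb6e, a paralog of Serpinb6a of which little is known, was lower in alopecic skin with little spread in either group. Its log2 values were 8.78, 8.44 and 8.57 in alopecic replicates 1, 2 and 3 and 9.88, 9.97 and 10.05 in unaffected replicates 1, 2 and 3. The groups did not overlap, and the gap between them was several times the range within each. The difference was -1.37 (SE 0.13), or 2.58-fold lower, with SDs of 0.18 and 0.08 (n = 3 each). Without unaffected replicate 3, the array with far lower hair keratins, it was -1.33. The part of hair follicle content in this difference was not tested. The call was lost with any single array left out. In bulk skin, fewer cells of a type and less RNA per cell cannot be told apart, here and for each gene below.

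A single probe set measured Serpinb6e, and its name ends in x_at, which in the maker's naming marks probes that can also bind similar transcripts. The annotation table gave no source transcript for it. Serpinb6a, Serpinb6b, Serpinb6c and Serpinb6d are its paralogs, but sequences of their transcripts and of the probes were not compared. How much of the signal came from each was not tested. The probe sets of Serpinb6a, Serpinb6b and Serpinb6c did not have the profile of Serpinb6e, and Serpinb6d was not measured.

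Serpinb6a, which inhibits cathepsin G and trypsin-like proteases, had overlapping groups. Its values were 12.55, 12.42 and 11.91 in alopecic skin and 12.31, 11.49 and 12.90 in unaffected skin, a difference of 0.06 (SE 0.39). The highest and the lowest of these 6 values were both from unaffected mice. Its sign was not stable, at -0.31 with unaffected replicate 2 dropped and 0.40 with unaffected replicate 3 dropped.

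Serpinb6c, whose probe set ends in s_at and so is shared between transcripts, was at 5.69, 5.31 and 4.99 in alopecic and 7.24, 5.88 and 5.23 in unaffected skin. Unaffected replicate 1 was far above the other 5 arrays, all of which were dim. The difference was -0.79 (SE 0.53). It became -0.22 with unaffected replicate 1 dropped and -1.23 with unaffected replicate 3 dropped.

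Serpinb6b, which in mouse inhibits granzyme A, a protease of cytotoxic lymphocytes, was higher in each alopecic array. The values were 7.09, 5.86 and 5.68 against 4.77, 5.09 and 5.44, so the groups did not overlap. Every array other than alopecic replicate 1 was dim. The difference was 1.11 (SE 0.41), or 2.16-fold, and did not pass the threshold. Dropping alopecic replicate 1, the array with its highest value, gave 0.67, and dropping unaffected replicate 3 gave 1.28. Within the 4 Serpinb6 genes measured, therefore, 1 fell, 1 was higher without passing and the groups of the remaining pair overlapped.

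Serpinb9, the inhibitor of granzyme B, with which cytotoxic lymphocytes and dendritic cells protect themselves from that protease, was higher in alopecic skin by both of its probe sets. The brighter one had values of 9.04, 8.42 and 8.38 in alopecic and 6.67, 6.44 and 6.32 in unaffected skin. Each alopecic array was above each unaffected array, and the difference was 2.14 (SE 0.22), or 4.39-fold. The second probe set stood at 7.03, 6.87 and 6.81 against 4.99, 5.11 and 5.18, with dim unaffected arrays and a difference of 1.81 (SE 0.11), or 3.51-fold. The probe sets thus gave the same direction with SDs of at most 0.37 in a group of 3 arrays. Without unaffected replicate 3 the difference of the brighter one was 2.06. The call was lost when any array other than alopecic replicate 1 was left out.

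The stretches of DNA before the start sites of Serpinb9, Serpinb6e and Serpinb6a are shown for the member that rose, the member that fell and a paralog whose groups overlapped. They were searched for elements known from interferon and NF-kB responses, and no relation of these elements to the levels was tested. Each line is 250 bases upstream of a start site (RefSeq, GRCm38.p6), 5' to 3' in the direction of the gene, with matches to the searched motifs in capitals.
Serpinb9 at chr13:33004291-33004540, plus strand: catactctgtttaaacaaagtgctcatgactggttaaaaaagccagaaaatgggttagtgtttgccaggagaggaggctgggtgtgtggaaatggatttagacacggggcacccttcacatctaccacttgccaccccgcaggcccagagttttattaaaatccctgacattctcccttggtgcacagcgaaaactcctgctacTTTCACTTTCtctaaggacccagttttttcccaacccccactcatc
Serpinb6e at chr13:33843409-33843658, minus strand: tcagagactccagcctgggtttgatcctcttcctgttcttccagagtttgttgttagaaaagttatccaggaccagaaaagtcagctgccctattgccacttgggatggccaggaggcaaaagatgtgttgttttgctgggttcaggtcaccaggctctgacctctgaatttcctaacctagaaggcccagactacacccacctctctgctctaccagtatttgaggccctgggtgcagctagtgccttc
Serpinb6a at chr13:34002795-34003044, minus strand: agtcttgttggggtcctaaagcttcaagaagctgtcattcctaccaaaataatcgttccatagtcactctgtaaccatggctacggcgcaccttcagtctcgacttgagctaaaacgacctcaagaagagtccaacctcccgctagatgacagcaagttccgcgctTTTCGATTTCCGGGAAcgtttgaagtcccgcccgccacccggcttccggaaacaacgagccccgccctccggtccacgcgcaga

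The motifs searched on both strands were GAAANNGAAA, the core of the interferon-stimulated response element, TTCNNNGAA, the site bound by STAT dimers, and GGGNNNTTCC, a form of the NF-kB site. Over 32851 start sites of the RefSeq table, 2.98%, 7.02% and 4.65% of windows of 250 bases held them. The window of Serpinb9 held 1 match to the first motif, TTTCACTTTC, from 46 to 37 bases before the start site, and none to the others. The window of Serpinb6e held no match to any of them. The upstream start site of Serpinb6a had TTTCGATTTC from 84 to 75 and TTCCGGGAA from 77 to 69 bases before it, and these matches overlap. Of the other members, Serpinb2 had a match, TTCCAAGAA, before 1 of its start sites. Start sites were listed for 9 of the 10 genes, 12 in all, and Serpinb1a was not among them. A match describes letters in a window and does not show binding.

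Serpinb1a, the inhibitor of the neutrophil proteases elastase, proteinase 3 and cathepsin G, was higher in alopecic skin by both probe sets without passing the threshold. The brighter one was at 11.47, 9.33 and 9.68 in alopecic and 8.99, 7.93 and 8.30 in unaffected skin. The groups did not overlap, but alopecic replicate 1 was 1.96 above the mean of the other alopecic arrays. The difference was 1.75 (SE 0.61), or 3.37-fold, and 1.10 without that array. The second probe set, which ends in s_at, was at 8.93, 7.10 and 6.92 against 6.20, 5.64 and 5.46, a difference of 1.88 (SE 0.57). Without unaffected replicate 3 the difference of the brighter probe set was 1.70.

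Serpinb2, also named plasminogen activator inhibitor type 2, which inhibits urokinase and is made by keratinocytes and macrophages, was lower in alopecic skin. Values of 10.63, 10.84 and 9.33 stood against 11.12, 11.22 and 11.85, and the groups did not overlap. The gap was narrow, and alopecic replicate 3 was the lowest array. The difference of -1.13 (SE 0.44), or 2.19-fold, did not pass the threshold, and it was -0.66 with alopecic replicate 3 dropped and -0.90 with unaffected replicate 3 dropped.

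Serpinb8, an inhibitor of the proprotein convertase furin whose loss in people causes a peeling skin disorder, had probe sets that differed in overlap. The brighter one was at 9.92, 8.98 and 8.75 in alopecic and 9.97, 9.74 and 9.42 in unaffected skin, a difference of -0.49 (SE 0.34). The second was at 8.53, 8.22 and 8.0 against 8.86, 8.91 and 9.02, where the groups did not overlap, a difference of -0.68 (SE 0.16). Alopecic replicate 1 was the highest alopecic array by both. The difference of the brighter one depended on single arrays, at -0.84 without alopecic replicate 1 and -0.25 without alopecic replicate 3, the lowest. It was -0.36 without unaffected replicate 1 and -0.63 without unaffected replicate 3.

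Serpinb5, or maspin, a relative without known protease inhibition that is abundant in epithelial cells, did not separate the groups by any of its 4 probe sets. The probe set taken for the gene was at 12.63, 12.05 and 12.26 in alopecic and 12.80, 12.75 and 11.61 in unaffected skin, a difference of -0.08 (SE 0.36). The other 3 differed by -0.14 (SE 0.25), 0.13 (SE 0.19) and 0.12 (SE 0.15). Unaffected replicate 3 was the lowest array by each of the 4, and without it the first differed by -0.46.

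Serpinb12, an epithelial inhibitor of trypsin-like proteases, varied more between mice of a group than between the groups. Its brighter probe set was at 7.28, 4.56 and 4.84 in alopecic and 7.65, 5.98 and 5.67 in unaffected skin. Replicate 1 of either group was the high array, and all other arrays were dim. The SDs were 1.5 and 1.06, and the difference was -0.87 (SE 0.89). Leaving out alopecic replicate 1 gave -1.73. The value was -0.27 without unaffected replicate 1, and -1.25 when unaffected replicate 3 was dropped. The second probe set was dim on all arrays, between 4.32 and 4.76.

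The clusters were compared next by the order of the genes along the chromosomes. Of the 28 protein-coding clade B genes that RefSeq lists, 12 on chromosome 1 and 16 on chromosome 13, a probe set with a single symbol measured 7 and 11. The 4 members on chromosome 1, Serpinb5, Serpinb12, Serpinb2 and Serpinb8, had differences below 0, from -1.13 to -0.08, as had the 3 other genes measured there. Over all genes 9354 of 18193 had a difference below 0. The sign of Serpinb5 depended on the probe set, since its further ones differed by -0.14, 0.13 and 0.12. On chromosome 13 the members at one end of the cluster, Serpinb1a, Serpinb6b and Serpinb9, had differences of 1.75, 1.11 and 2.14. Those at the other end, Serpinb6e, Serpinb6c and Serpinb6a, had -1.37, -0.79 and 0.06. The measured genes between them, Serpinb9b, Serpinb1b, Serpinb9c, Serpinb9d and Serpinb9g, had 0.03, 0.69, -0.09, -0.07 and 0.02. Whether position has a part in these differences was not tested.

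**Figure D2:**
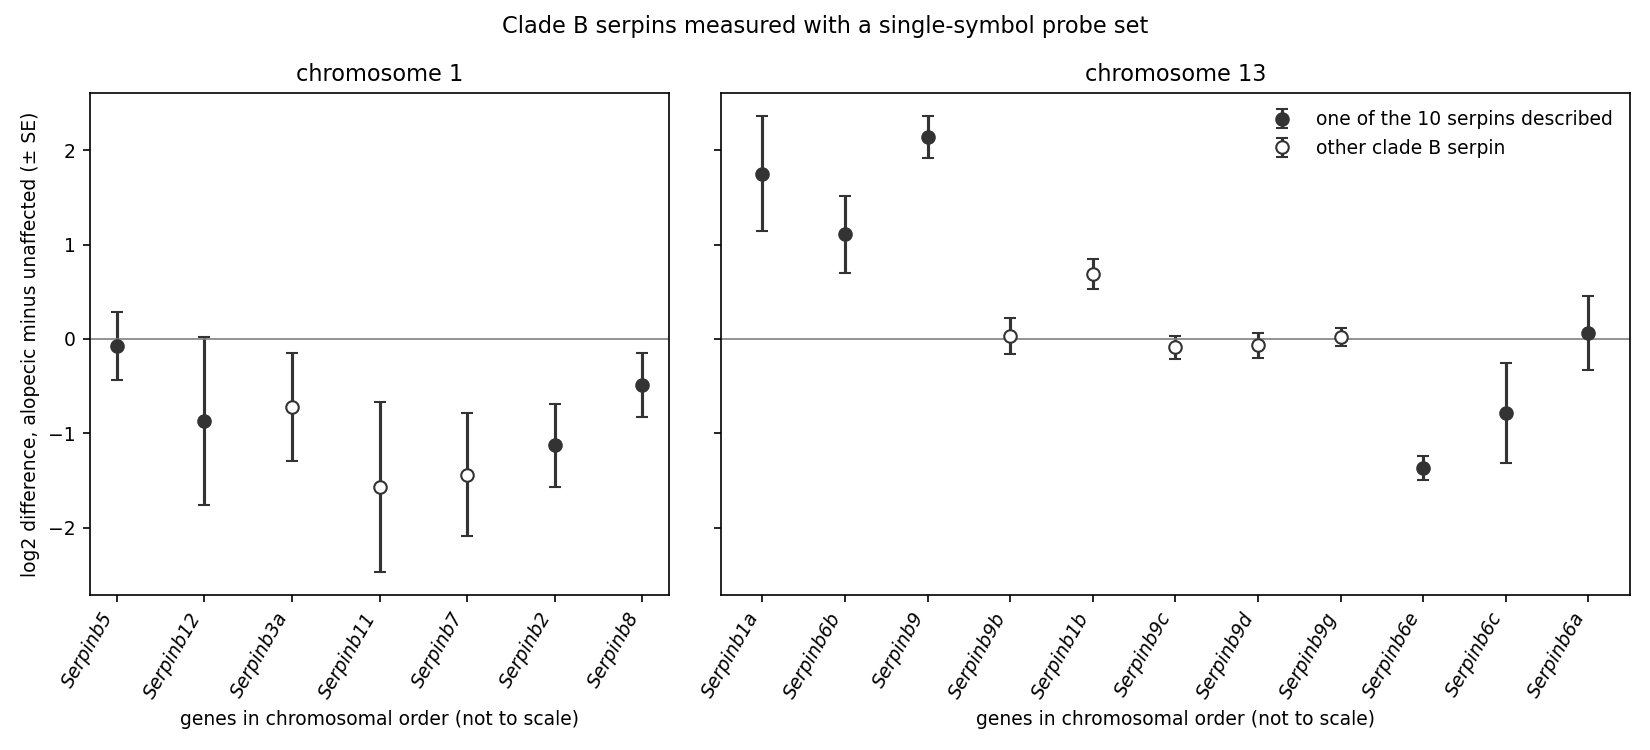
Log2 difference, alopecic minus unaffected, with its SE (y axis) for the 18 measured clade B serpins in chromosomal order (x axis, not to scale); filled points are the 10 genes described and open points other family members. On chromosome 1 the points lie at or below -0.08, and on chromosome 13 they run from 2.14 for Serpinb9 to -1.37 for Serpinb6e.

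None of the 8 other clade B genes measured, of 17 listed, passed the threshold (limma, adjusted p from 0.343 to 0.982; 1 had an unadjusted p under 0.05, as had 7.15% of all genes). That gene was Serpinb1b, a dim paralog of Serpinb1a, at 5.38, 5.01 and 4.92 against 4.32, 4.36 and 4.54, a difference of 0.69 (SE 0.16, adjusted p = 0.343). Serpinb7, a keratinocyte serpin whose loss in people causes thickened skin of palms and soles, was at 11.07, 9.09 and 8.59 in alopecic and 11.31, 11.04 and 10.72 in unaffected skin. Alopecic replicate 1 lay in the range of the unaffected arrays, and the difference was -1.44 (SE 0.65, adjusted p = 0.756). It was -2.18 without alopecic replicate 1 and -0.95 without alopecic replicate 3. Serpinb11 differed by -1.57 (SE 0.90, adjusted p = 0.836) and Serpinb3a, a squamous cell serpin that inhibits cysteine proteases, by -0.72 (SE 0.57, adjusted p = 0.859). Single arrays moved both: Serpinb11 was at -0.83 without unaffected replicate 2 and -2.40 without unaffected replicate 3, and Serpinb3a at -1.29 without alopecic replicate 1 and -0.37 without unaffected replicate 3. The 4 measured Serpinb9 paralogs, Serpinb9b, Serpinb9c, Serpinb9d and Serpinb9g, were dim in both groups with differences of 0.03, -0.09, -0.07 and 0.02, beside 2.14 for Serpinb9. Of 20 measured serpins of other clades 0 passed (6 above 0 and 14 below, median -0.07, 0 at an unadjusted p under 0.05), with Serping1, the inhibitor of complement C1, at 0.21 (SE 0.54) and the collagen chaperone Serpinh1 at 0.61 (SE 0.31). That median was -0.12 without unaffected replicate 3, and Serping1 and Serpinh1 were then at 0.11 and 0.39.

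Of 19 listed proteases, called target proteases here, 0 passed the threshold. The list holds known targets of these serpins. It also holds Ctss, Ctsb, Ctsh, Ctsl and Ctsk, which are not assigned here to any of the 10 genes. Without overlap 4 of the 19 were higher and 0 lower, beside 6.93% and 6.12% of all genes. By limma, 4 had an unadjusted p under 0.05, beside 7.15% of all genes. The median of the 19 was -0.04, and -0.18 without unaffected replicate 3. Gzmb, granzyme B and the target of Serpinb9, was at 11.10, 8.84 and 9.56 in alopecic and 5.04, 5.15 and 5.99 in unaffected skin. Its groups were far apart, with a difference of 4.44 (SE 0.61, adjusted p = 0.0843). Gzma, granzyme A and the target of Serpinb6b, was at 11.89, 9.37 and 11.65 against 5.05, 5.44 and 4.97, a difference of 5.82 (SE 0.68, adjusted p = 0.0576). Both passed when the array weights of limma were used (adjusted p = 0.0153 and 0.0248). The unaffected arrays of both granzymes were dim, so the folds are not exact ratios.

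The neutrophil targets of Serpinb1a were dim or had overlapping groups. Elane, neutrophil elastase, was dim at 4.16 to 4.51 in alopecic and 4.28 to 4.73 in unaffected skin (difference -0.16, SE 0.16). Ctsg, cathepsin G, was dim at 4.46 to 5.22 and 4.71 to 4.82 (difference -0.04, SE 0.22), and Prtn3, proteinase 3, differed by -0.37 (SE 0.36). Plau, urokinase and a target of Serpinb2, was at 7.47, 6.48 and 7.06 against 5.87, 5.37 and 6.08, a difference of 1.24 (SE 0.31, adjusted p = 0.427). Its unaffected arrays were dim, and the mean of all its probe sets gave 0.65, so the size depends on the probe set. Serpinb2 differed by -1.13, with the opposite sign. Plat, tissue plasminogen activator, differed by 0.37 (SE 0.38). Furin, the target of Serpinb8, was at 9.48, 9.43 and 9.74 against 9.01, 9.22 and 8.99, a difference of 0.48 (SE 0.14, adjusted p = 0.52). The lysosomal cathepsins Ctss, Ctsb, Ctsh, Ctsl and Ctsk differed by 1.37, 0.14, 0.04, -0.54 and -0.55 (SE from 0.41 to 0.73). Of 16 measured epidermal serine proteases and their inhibitors 0 passed, and 1 had an unadjusted limma p under 0.05, the protease inhibitor Spint2 (0.42, SE 0.11, adjusted p = 0.474). Klk7, a protease of corneocyte shedding, differed by 0.58 (SE 0.98). Without unaffected replicate 3 Klk7 was at -0.33, and the median of these 16 genes was -0.21 in place of 0.23.

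**Figure D3:**
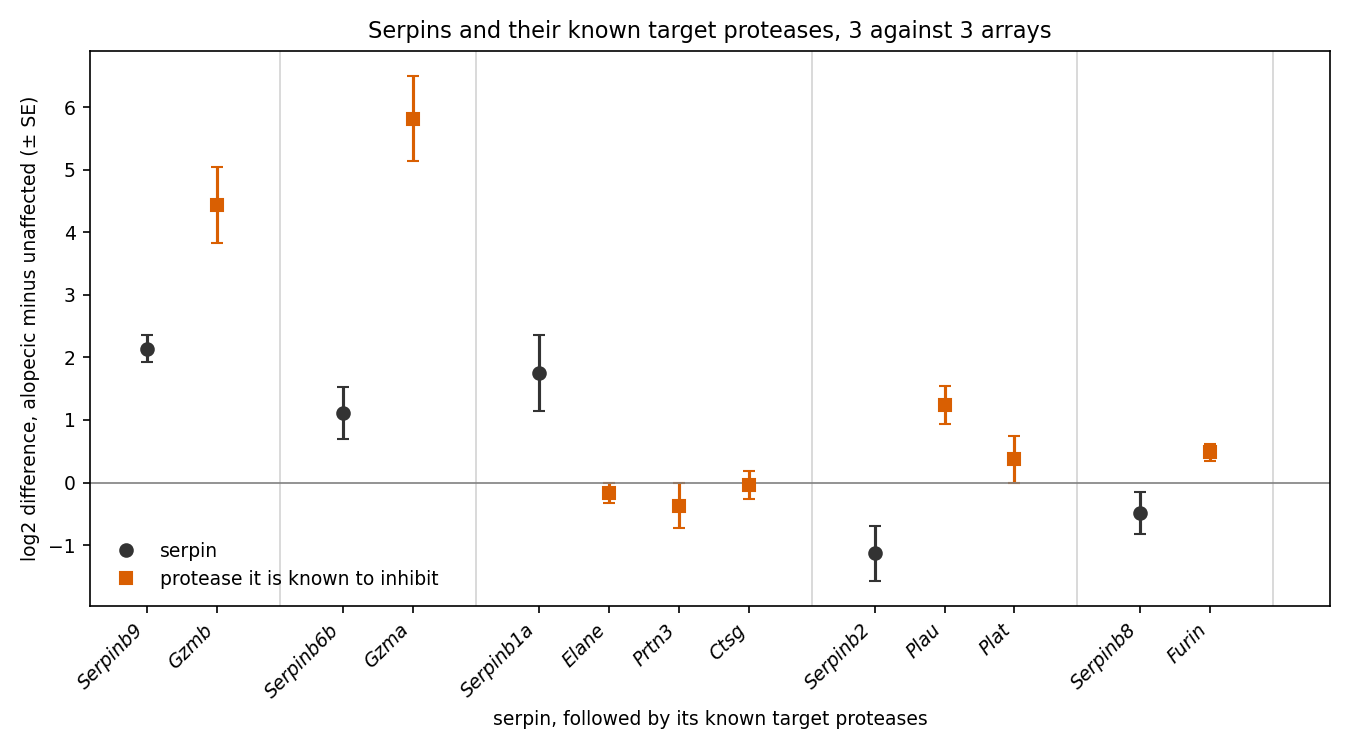
Log2 difference, alopecic minus unaffected, with its SE (y axis) for 5 serpins (circles) and the proteases each is known to inhibit (squares), grouped on the x axis. Gzmb at 4.44 and its inhibitor Serpinb9 at 2.14 both lie above 0, as do Gzma at 5.82 and Serpinb6b at 1.11, while Elane, Prtn3 and Ctsg lie between -0.37 and -0.04 beside Serpinb1a at 1.75; sizes are not comparable between genes.

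Lists of cell type markers were compared over the same arrays. The mean of 13 genes of T and cytotoxic lymphocytes was 7.865 to 9.257 in alopecic and 5.889 to 6.082 in unaffected skin, with each of the 13 genes higher in every alopecic array. Over all genes, 6.93% had groups without overlap and the alopecic arrays higher. By limma, 12 of the 13 had an unadjusted p under 0.05, beside 7.15% of all genes. Only 1 of the 13 passed the threshold, beside 0.275% of all genes. That gene was Ifng, which encodes interferon gamma (2.24, SE 0.25, adjusted p = 0.0494). Its call was lost when any array other than alopecic replicate 1 was left out. Alopecic replicate 1 was highest in this list, at 9.257 against 7.865 and 8.129, and also had the highest alopecic value of Serpinb9, Serpinb6b and Serpinb1a. It was also the highest alopecic array in the lists of macrophages, neutrophils, mast cells, skeletal muscle and suprabasal keratinocytes. The same held for epidermal serine proteases, target proteases and both lists of other serpins. Another alopecic array was highest in the lists of hair shaft, inner root sheath, basal keratinocyte, sebaceous gland and dermal fat genes. The part of lymphocytes in the values of these serpins was not tested. The mean of 10 macrophage and monocyte genes was 8.109 to 9.867 in alopecic and 7.806 to 9.219 in unaffected skin, with 0 past the threshold and 0 at an unadjusted limma p under 0.05. Csf1r, the receptor of a macrophage growth factor, and Lyz2, a lysozyme, differed by 0.10 and 0.35, and by -0.01 and -0.17 without unaffected replicate 3. The mean of 6 neutrophil genes was 5.78 to 6.401 and 5.564 to 6.347, with Csf3r, Cxcr2, Elane and Mpo dim on all arrays. The calprotectin subunits S100a8 and S100a9 differed by 0.91 and 0.73, and by 0.62 and 0.54 without unaffected replicate 3. In that list too 0 passed and 0 had an unadjusted limma p under 0.05.

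Genes of the cornifying epidermis also differed between mice of a group. The mean of 13 suprabasal and cornified keratinocyte genes was 11.654 in alopecic replicate 1 and 10.720 and 10.893 in replicates 2 and 3, beside 11.833, 11.788 and 10.571 in unaffected replicates 1, 2 and 3. Of the 10 serpins 9 had their highest alopecic value in alopecic replicate 1, with Serpinb2, highest in replicate 2, the exception, and so had 7 of the 8 other clade B genes. In unaffected skin the highest array was replicate 1 for 6 of the 10 and replicate 3 for 4. Some dim genes had nearly equal values, such as Serpinb9d at 4.20, 4.13 and 4.19 in alopecic skin. How often each array was the highest over all genes was not counted, so nothing is read from these counts. The part of epidermal differentiation in these values was not tested. By limma, 0 genes of the suprabasal list passed and 0 had an unadjusted p under 0.05. Krt10 and Sbsn differed by -0.30 and -0.20, and the median of that list was -0.30, or -0.67 without unaffected replicate 3.

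Markers of hair follicles, sebaceous glands and fat depended on unaffected replicate 3. The 12 hair shaft keratins had a median difference of 0.01 with that array and -1.99 without it. Their mean was 10.118, 10.057 and 10.625 in alopecic skin and 11.766, 12.756 and 5.941 in unaffected skin, so that the other unaffected arrays were above all alopecic ones. By limma 0 of them passed with or without that array. With it 0 had an unadjusted p under 0.05, beside 7.15% of all genes, and without it 10 had, beside 10.1%. Krt33a and Krt31 of this list differed by 1.09 and 0.36, and by -1.92 and -2.06 without it. For 11 genes of the inner root sheath or companion layer the median turned from 1.28 to -1.21, with Krt25 at 2.36 and -0.44 and Krt6a at 0.47 and 0.21. The median of the 5 sebaceous gland genes turned from 0.43 to -0.87, with Scd1, a fatty acid desaturase, at 0.64 and 0.29 and Fa2h, a fatty acid hydroxylase, at 0.43 and -0.13. That of 5 dermal fat genes went from -0.42 to -1.26, with Fabp4 at -0.42 and -0.61 and Adipoq, which encodes adiponectin, at -0.71 and -2.08.

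For 8 mast cell genes the median was -0.29 with all arrays and -0.58 without unaffected replicate 3, where Kit was at 0.15 and -0.61 and Cpa3 at -0.66 and -1.93. For 6 skeletal muscle genes it was 0.18 and 0.82, with Acta1 at 0.10 and 0.46 and Myh4 at 0.20 and 0.71. The 7 basal keratinocyte genes had medians of 0.01 and 0.22, with Krt14 at 0.48 and 0.39 and Krt5 at 0.40 and 0.52. No gene of these lists passed by limma in either fit. With all arrays, 3 basal keratinocyte genes, 1 inner root sheath gene and 0 genes of the sebaceous, fat, mast cell and muscle lists had an unadjusted p under 0.05, beside 7.15% of all genes. Without unaffected replicate 3 there were 3 of 7 basal keratinocyte, 7 of 11 inner root sheath, 3 of 5 sebaceous and 4 of 5 fat genes. In the mast cell and muscle lists there were then 0, beside 10.1% of all genes. Serpinb6e differed by -1.37 and -1.33 and Serpinb9 by 2.14 and 2.06 with and without that array.

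**Figure D4:**
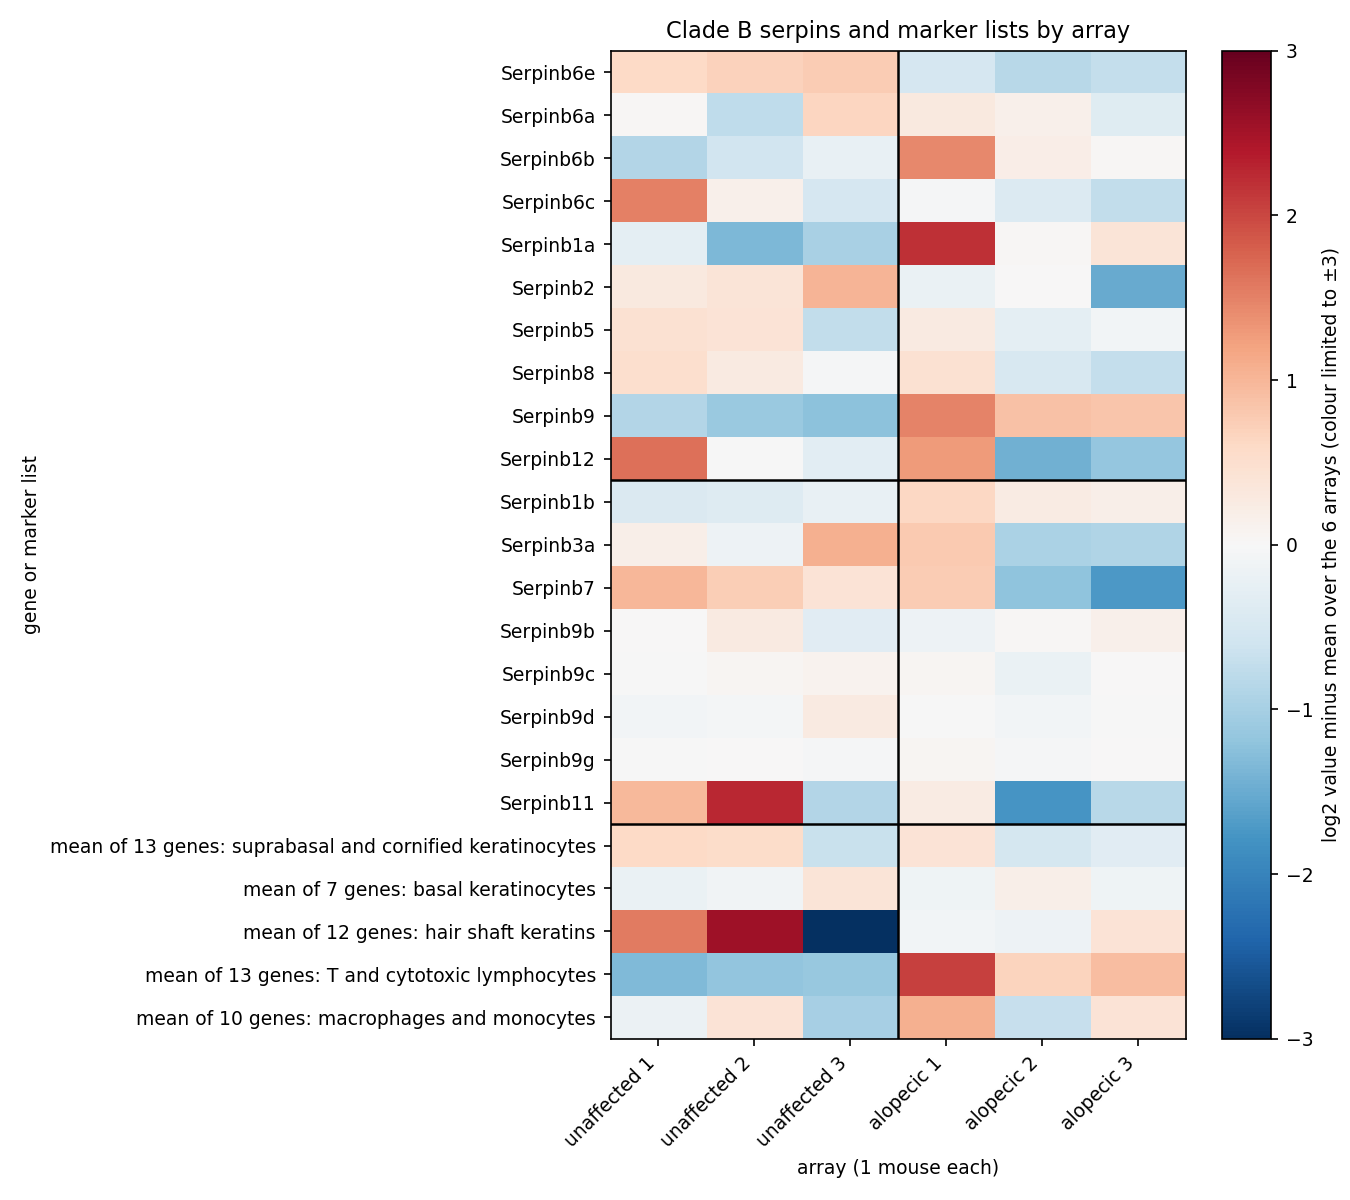
Log2 value minus the mean over the 6 arrays (colour, limited to 3 either way) for the 10 serpins (top), 8 other clade B serpins (middle) and the mean of 5 marker lists (bottom), with 1 array per column. Serpinb6e is low and Serpinb9 high in all 3 alopecic arrays. In unaffected replicate 3 the hair shaft keratin mean was 5.941, with Serpinb6e at 10.05 and Serpinb9 at 6.32, and any relation was not tested.

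Genes with the profile nearest to that of Serpinb6e were found by the root mean square difference of centred log2 values over the 6 arrays, as a description. The nearest were Slc49a4 (0.219), Hoxd8 (0.238), Syngr1 (0.253), Hnmt (0.263) and Cdh4 (0.272), with differences from -1.41 to -0.99. When all probe sets of a gene were averaged, Slc49a4, Syngr1 and Cdh4 differed by -0.42, -0.49 and -0.49. Hoxd8 and Hnmt then differed by -1.31 and -1.06. Hoxd8, a homeobox transcription factor, was at 9.08, 8.39 and 8.41 in alopecic and 10.32, 9.74 and 10.06 in unaffected skin. The genes nearest to the mirrored profile were closer. They were Trim25, a ubiquitin ligase of antiviral signalling (0.0891), Rab19 (0.149), Tmem51 (0.157), Adar, an RNA-editing enzyme (0.170), and the chemokine Cx3cl1 (0.178). Trim25 was at 11.21, 11.43 and 11.50 in alopecic and 10.02, 9.89 and 9.75 in unaffected skin. These 5 genes differed by 1.14 to 1.49, but Cx3cl1 by 0.40 when all its probe sets were averaged. The groups overlapped in none of the 10 genes. Both the separation and the small spread follow from how these genes were chosen, so no count of calls among them is given.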

How the data were processed

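The 6 arrays were 3 of affected alopecic skin and 3 of unaffected skin, each from a separate mouse per the series design text. The log2 values of each probe set were deposited by the authors, and RMA is named in the submitters' processing notes. It corrects background and normalizes arrays to each other. Sources used here do not give its version. Values were used as deposited. Arrays have no read depth, and 3 arrays per group limit the precision. Symbols came from the platform annotation table and were updated through RefSeq gene identifiers. The probe set with the highest mean stood for its gene, and alopecic minus unaffected was fitted over 18193 genes with limma 3.58.1 in R 4.3.3 (lmFit, eBayes, two-sided), with Benjamini-Hochberg adjustment and a threshold of 0.05. Every further probe set of a member was fitted over 45037 probe sets in the same way. SEs come from these fits, and SDs are over 3 arrays. The fit was tested on simulated data. The members and gene lists were chosen with earlier results of these data known. Named were all members, up to 8 other clade B serpins and up to 8 target proteases with the highest mean, up to 4 genes of each other list past the threshold or else the 2 with the highest mean, and the 5 genes nearest to Serpinb6e in each direction. Gzmb, Plau, Elane, Ctsg and Prtn3 were named as known targets and Csf3r, Cxcr2 and Mpo as dim markers, outside that rule. Alternatives changed the probe set rule, the unit fitted, a dim filter, the scaling, the moderation, array weights, a replicate block and each array in turn. Promoter sequences were read from a RefSeq table of GRCm38.p6.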

Additional observations from a re-analysis of the deposited data

How the results depend on the processing

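The number of genes past the threshold was 50 and ran from 4 (without unaffected replicate 2) to 39 (without unaffected replicate 3) with single arrays left out; it was 139 with array weights. That of the 10 serpins was 2 and ran from 0 to 1 with single arrays left out, and was 1 with dim genes left out, where Serpinb9 was not fitted. Target proteases past the threshold, 0 as reported, were 2 with dim genes left out, 1 with trend and robust moderation, 2 with array weights and 0 to 1 with single arrays left out. The Serpinb6e difference ran from -1.46 to -1.29 and that of Serpinb9 from 1.92 to 2.25 with single arrays left out (adjusted p from 0.0538 to 0.183 and from 0.0475 to 0.208), and neither changed sign in any alternative run.

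The replicate numbers are not said to pair the mice, and deviations of same-numbered arrays correlated at -0.132, -0.197 and -0.33. Those of differently numbered arrays of the groups correlated at -0.092 to 0.377. With the replicate number as a block 0 genes and 0 of the 10 serpins passed by limma (4 of the 10 and 873 of all genes had an unadjusted p under 0.05), and the differences of Serpinb6e (-1.37, adjusted p = 0.328) and Serpinb9 (2.14, adjusted p = 0.171) missed the threshold. That fit has fewer residual degrees of freedom.

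For 64 other named genes, 825 of 878 values kept their sign. Among the 64 are the 5 genes nearest to Serpinb6e in each direction. Their calls are not counted, since these genes were chosen by their profile. Ifng was past the threshold as reported. It missed the threshold with the mean of all probe sets, each probe set fitted, the replicate block, and any array other than alopecic replicate 1 left out. Gzma was newly past it with dim genes left out, trend and robust moderation, array weights, or alopecic replicate 2 left out. Gzmb was newly past it with dim genes left out or array weights. With array weights signs turned for Serpinb6a (-0.0046), Serpinb9d (0.0212), Plat (-0.0966), Ctsb (-0.0221), Ctsh (-0.3327), Klk7 (-0.0789), Krt33a (-1.1046), Krt31 (-1.1216), Fa2h (-0.1729), Csf1r (-0.0356), Kit (-0.071) and Acta1 (-0.1341), and with the mean of all probe sets for Serpinb5 (0.0086) and Kit (-0.0118). With single arrays left out they turned for Serpinb6a (from -0.3076 to 0.3984), Serpinb5 (from -0.4644 to 0.1302), Serpinb9b (from -0.135 to 0.1681), Serpinb9d (from -0.1293 to 0.0392), Serpinb9g (from -0.0056 to 0.0465), Ctsg (from -0.2768 to 0.1017), Prtn3 (from -0.641 to 0.0395), Plat (from -0.0242 to 0.6561), Ctsl (from -1.0343 to 0.0513), Ctsk (from -1.1643 to 0.0591), Ctsb (from -0.2387 to 0.4453), Ctsh (from -0.3799 to 0.4047), Serping1 (from -0.3309 to 0.6826), Klk7 (from -0.3308 to 1.3329), Krt33a (from -1.9245 to 2.7354), Krt31 (from -2.0552 to 1.7608), Krt25 (from -0.4402 to 3.7989), Sbsn (from -0.3874 to 0.0099), Fa2h (from -0.1303 to 0.9282), Csf1r (from -0.2901 to 0.5101), Lyz2 (from -0.1702 to 0.8854), S100a9 (from -0.0852 to 1.4897), Kit (from -0.61 to 0.74), Cpa3 (from -1.9261 to 0.1122), Acta1 (from -0.4652 to 0.4648) and Myh4 (from -0.2884 to 0.7071). The cause was not tested.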
